A study of Mus musculus with 6 samples.

Results

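The genes described here are 8 surface and enzyme markers that are used to pick out mammary stem cells or tumour-initiating cells: Cd44, Cd24a, Procr, Ly6a, Prom1, Lgr5, Aldh1a1 and Aldh1a3. They were taken from a list of names, drawn up with earlier results of these data known, and all 8 were found among the 53465 gene identifiers of the count file. Of these, 3 (Cd44, Cd24a and Procr) had enough counts to be among the 13550 genes tested, and the other 5 were at the edge of detection. RNA was sequenced from the 4T1 line, a mouse mammary carcinoma line, in 2 forms with 3 libraries each: parental cells (P), which were handled with vehicle, and axitinib-resistant cells (AxR). Axitinib is an inhibitor of VEGF receptor tyrosine kinases. The AxR cells came from metastatic lesions that arose after surgery in mice dosed with axitinib at 100 mg/kg/day, and were then kept with 0.5 µM axitinib in culture for over 2 months. A growth label names 0.5 µM axitinib for all 6 libraries, whereas the treatment label names it for the AxR libraries alone. Both lines were grown with 5% serum. The sources used here do not say how many lesions or clones the AxR line came from, nor whether the 3 libraries of a line came from separate cultures, so p-values measure only the spread between these libraries, which may be technical. Drug exposure, growth in the animal and culture history cannot be told apart in this design.

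CD44 is the main cell surface receptor for hyaluronan, and CD24 is a small, heavily glycosylated protein held on the surface by a lipid anchor. CD24 is used together with integrins to sort mammary cells into basal and luminal fractions. A CD44-high, CD24-low profile is the classical description of tumour-initiating cells in human breast cancer. PROCR (the endothelial protein C receptor) marks a stem cell population of the mouse mammary basal layer, SCA-1 (the product of Ly6a) marks progenitor fractions of the mouse mammary gland, prominin-1 (CD133) and LGR5 mark stem or progenitor cells in several epithelia, and ALDH1A1 and ALDH1A3 are retinaldehyde dehydrogenases whose activity is read in the Aldefluor assay.

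The libraries held 15495260 to 17294525 estimated counts. Levels are given as CPM, counts brought to a common library size with upper-quartile scaling, whose factors lay between 0.966 and 1.02. A limit of 3 counts corresponded to 0.171 to 0.196 CPM, depending on the library. In bulk RNA, fewer cells of a type and less RNA per cell cannot be told apart, so a lower marker level here does not count marker-positive cells.

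The 3 measurable markers were all lower in AxR. By edgeR's quasi-likelihood test, 3 of 3 tested members fell and 0 rose at an adjusted p under 0.05. Their median log2 fold change was -0.66, against 0.01 over all genes tested. The 2 lines differed widely, so this count has to be read against its background: 63.5% of all tested genes were called, 30.8% lower and 32.8% higher. Every AxR library lay below every P library for each of the 3 markers, which was also so for 33.1% of all tested genes. The counts of all 8 markers summed to 741 to 779 CPM in the P libraries and 453 to 518 CPM in the AxR libraries, nearly all of it from Cd44 and Cd24a.

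**Figure D1:**
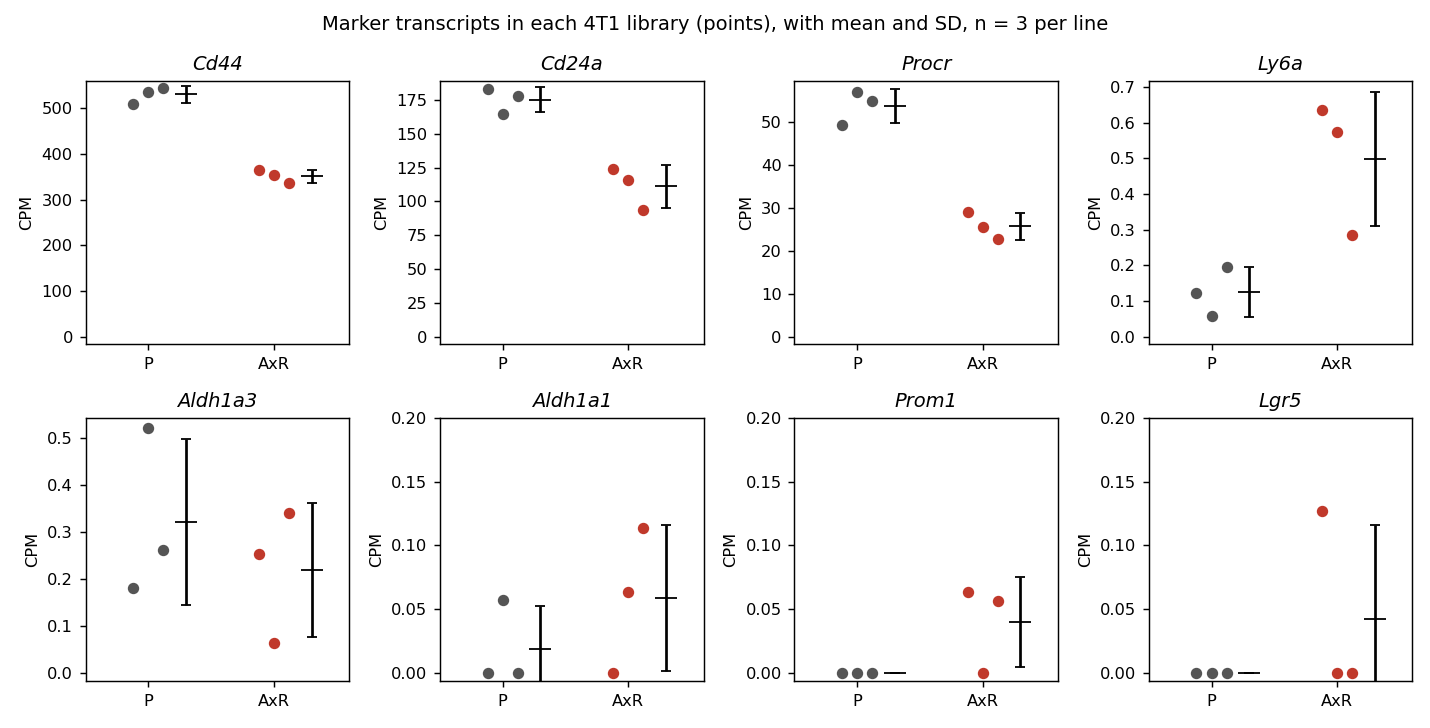
Upper-quartile scaled CPM of each of the 8 markers, 1 panel per gene with its own vertical axis, in the 3 P and 3 AxR libraries; each point is a library, and the bars give the mean and SD. Cd44, Cd24a and Procr separate the lines with the AxR libraries lower, whereas the other 5 markers stay under 1 CPM in all 6 libraries.

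Cd44 (ENSMUSG00000005087.17) lies on the minus strand of chromosome 2 at 102811141 to 102901665 in GRCm38. It was measured at 509, 536 and 545 CPM in the P libraries and at 364, 353 and 336 CPM in the AxR libraries. The groups did not overlap, and each AxR library was well under the lowest P library. The means were 530 ± 18.9 CPM in P and 351 ± 13.9 CPM in AxR (SD, n = 3 each). Cd44 thus fell to 66.3% of its P level, a log2 fold change of -0.59 (SE 0.049, 95% interval -0.70 to -0.49), with an adjusted p of 5.67e-08 by edgeR's quasi-likelihood test. Gene-level counts add all isoforms together, so the standard and variant forms of CD44 that arise by alternative splicing were not separated. Scaled to its length, its mean level was above that of 96.1% of the tested genes in P and of 93.6% in AxR.

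Cd24a (ENSMUSG00000047139.9) lies on the plus strand of chromosome 10 at 43578284 to 43584265. Its levels were 183, 165 and 178 CPM in the P libraries and 124, 116 and 93.5 CPM in the AxR libraries, again without overlap. The AxR libraries were more spread than the P libraries, and the third AxR library was the lowest of the 6. The means were 175 ± 9.35 and 111 ± 15.8 CPM (SD, n = 3 each). Cd24a fell to 63.4% of its P level, a log2 fold change of -0.66 (SE 0.091, 95% interval -0.86 to -0.46; adjusted p = 8.7e-05, edgeR's quasi-likelihood test). Of the 50-base stretches of its exons, 2.75% also occur in the gene Gm6212, which had at most 2 counts in any library.

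Procr (ENSMUSG00000027611.12) lies on the plus strand of chromosome 2 at 155751117 to 155755471. It had 49.3, 57.0 and 54.9 CPM in the P libraries and 29.0, 25.4 and 22.7 CPM in the AxR libraries. The means were 53.7 ± 3.98 and 25.7 ± 3.17 CPM (SD, n = 3 each), so that the highest AxR library stayed far under the lowest P library. Among the 8 markers, Procr had the largest fall that could be tested. It was at 47.8% of its P level in AxR, a log2 fold change of -1.07 (SE 0.088, 95% interval -1.25 to -0.88; adjusted p = 7.5e-08, edgeR's quasi-likelihood test). For each of these 3 genes, an exact permutation test over the 6 libraries gave p = 0.1, the smallest value that 3 libraries against 3 can reach.

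Among all tested genes ordered by log2 fold change, 4.38% lay below Procr, 10.4% below Cd24a and 12.3% below Cd44.

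**Figure D2:**
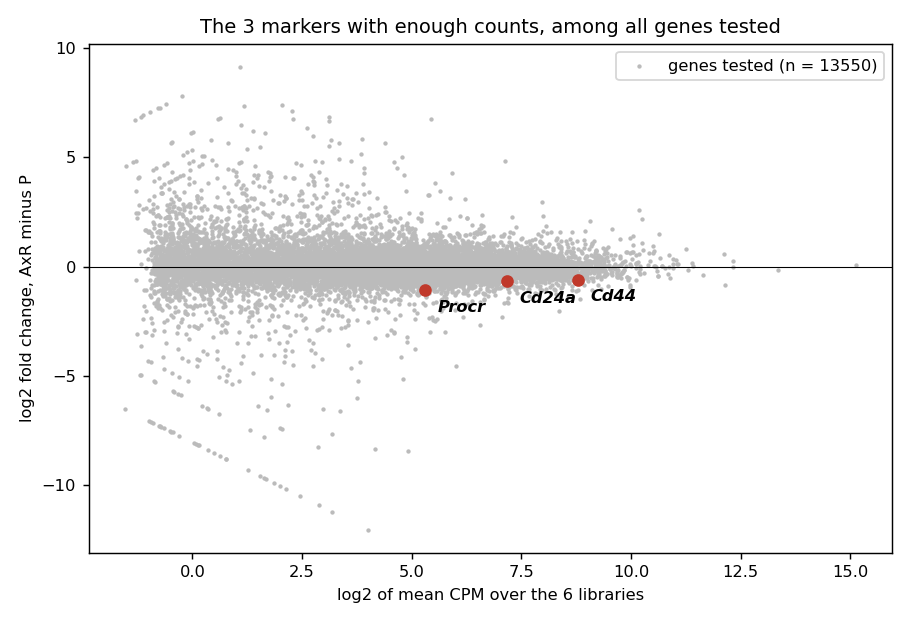
Log2 fold change of AxR against P (vertical axis) and log2 of the mean CPM over the 6 libraries (horizontal axis) for all 13550 tested genes, with Cd44, Cd24a and Procr marked. The 3 markers sit below 0, Procr lowest at -1.07, within a cloud that extends far above and below them.

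Per length, the levels of the 3 genes stood in the same order in both lines when the merged exons of a gene were taken as its length. In P, Cd44 had 78.2 ± 2.79 RPKM (CPM divided by the gene length in kilobases), Cd24a 67.9 ± 3.62 and Procr 26.5 ± 1.96 (SD, n = 3). In AxR the RPKM levels were 51.8 ± 2.05, 43.1 ± 6.13 and 12.7 ± 1.56. The ranges of neighbouring genes did not overlap in either line, although Cd44 and Cd24a came close: Cd44 began at 75.1 RPKM in P, where Cd24a ended at 70.8, and at 49.7 RPKM in AxR, where Cd24a ended at 48. With the longest transcript as the length, the order of Cd44 and Cd24a turned in P, to 94.4 against 96.5 RPKM, and was kept in AxR at 62.6 against 61.2, so their order rests on the length used. Procr was lowest with either length.

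The CD44-high, CD24-low profile describes surface protein on cells of human breast cancer, which bulk RNA of a mouse line does not measure. As a bulk RNA measure only, the Cd44 to Cd24a ratio was computed within each library on length-scaled counts. The log2 ratio was 0.08, 0.31 and 0.22 in the P libraries and 0.16, 0.21 and 0.45 in the AxR libraries. The groups overlapped. The means were 0.20 ± 0.11 and 0.28 ± 0.16 (SD, n = 3), a difference of 0.07 on the log2 scale, with p = 0.7 in a two-sided exact permutation test. Without the third AxR library, the one with the least Cd24a, the difference was -0.02. Both transcripts were lower in AxR by a similar factor, and no shift of their balance in bulk RNA was detectable with these libraries. The profile itself was not measured.

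Procr was also set against the other pair, and both of its ratios were lower in every AxR library, in a test that could not fall under 0.05. The log2 ratio of Procr to Cd44 was -1.63, -1.49 and -1.57 in P and -1.91, -2.06 and -2.15 in AxR, with no overlap. Its mean went from -1.57 ± 0.068 to -2.04 ± 0.12, a difference of -0.47. The log2 ratio of Procr to Cd24a was -1.55, -1.19 and -1.35 in P and -1.75, -1.84 and -1.70 in AxR, also with no overlap, a difference of -0.40. Each difference had p = 0.1 in a two-sided exact permutation test, the smallest possible with 3 against 3, and 0.15 after Benjamini-Hochberg adjustment over the 3 ratios. Neither could pass at this number of libraries, so the test does not decide whether these ratios differ. The ratios with Procr were chosen after its values were seen.

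**Figure D3:**
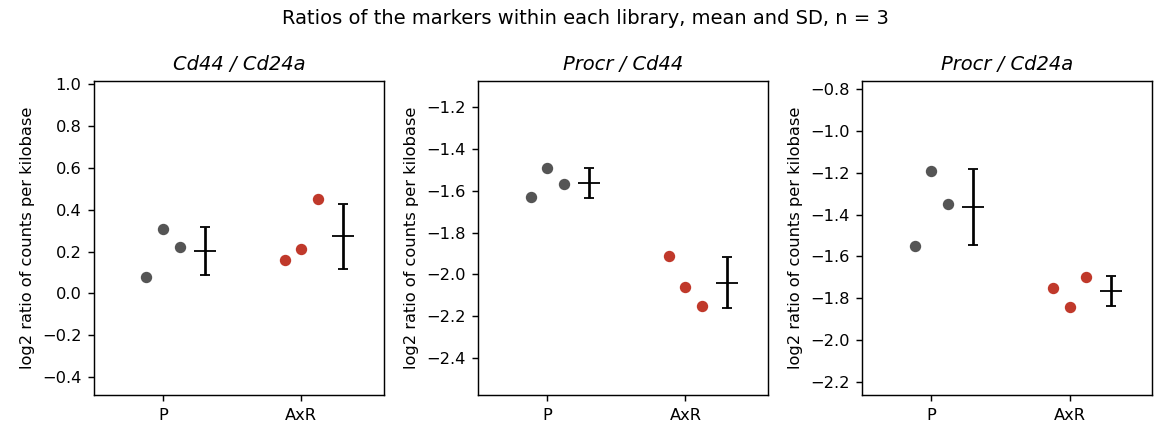
Log2 ratios of length-scaled counts within each library for Cd44 to Cd24a, Procr to Cd44 and Procr to Cd24a; points are the 3 P and 3 AxR libraries, and bars the mean and SD. The P and AxR libraries overlap for Cd44 to Cd24a and separate for both ratios with Procr.

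The genomic surroundings of the 3 markers differed. The 20 tested genes around Cd44, taken in equal number from each side, had a median log2 fold change of 0.07, and 9 of the 20 were below 0. Around Cd24a the median was 0.39 and 5 of 20 were below 0, and the median over chromosome 10 was 0.25 (669 tested genes). Cd24a therefore lay against the trend of its chromosome, and relative to the chromosome 10 median its log2 fold change was -0.91. The 20 tested genes around Procr moved more with it: their median log2 fold change was -0.36 and 16 of 20 were below 0. Over all 1065 tested genes of chromosome 2 the median was -0.09, which leaves -0.97 for Procr and -0.50 for Cd44. Whether the DNA copy number of these regions had a part in the levels was not tested.

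**Figure D4:**
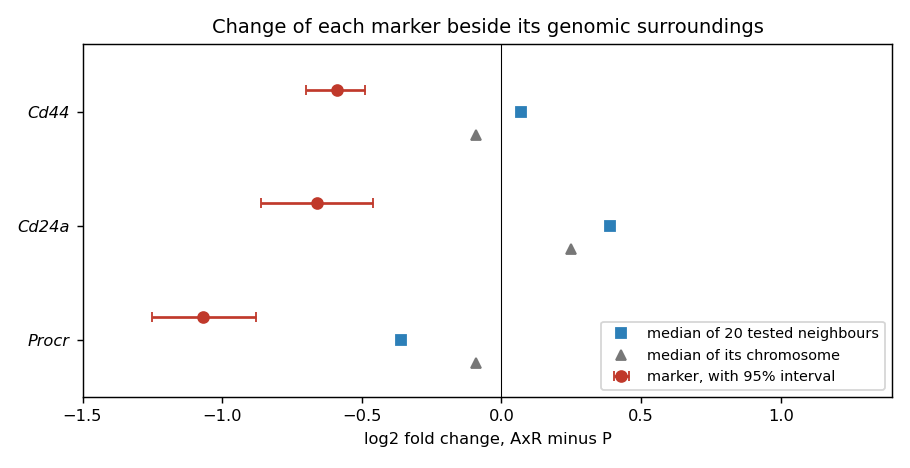
Log2 fold change of AxR against P (horizontal axis) for Cd44, Cd24a and Procr with 95% intervals (circles), beside the median of the 20 tested genes around each (squares) and the median of the chromosome (triangles). Each marker lies below both medians, and the neighbour median is at -0.36 for Procr and 0.39 for Cd24a.

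Promoter sequence was at hand for 4 of the 8 genes (Cd44, Procr, Prom1 and Aldh1a1), from RefSeq on GRCm38.p6. The stretches just upstream of the gene start are shown for Cd44 and Procr, the pair on chromosome 2 that fell by different amounts. They are written 5′ to 3′ on the gene's own strand, and capitals mark a match to the AP-1 motif TGANTCA. The Cd44 stretch is chr2:102901666-102901915 on the minus strand, and the Procr stretch is chr2:155750967-155751116 on the plus strand.
Cd44: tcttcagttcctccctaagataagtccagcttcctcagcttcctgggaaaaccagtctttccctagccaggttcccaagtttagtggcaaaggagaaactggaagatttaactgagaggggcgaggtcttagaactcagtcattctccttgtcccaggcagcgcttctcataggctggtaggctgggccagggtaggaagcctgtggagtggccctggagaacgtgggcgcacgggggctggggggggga
Procr: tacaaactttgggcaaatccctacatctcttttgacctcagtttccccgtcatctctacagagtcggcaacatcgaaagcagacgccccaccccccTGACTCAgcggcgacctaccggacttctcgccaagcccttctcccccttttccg

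Both strands of the 250 bases upstream of each RefSeq start were searched for 5 motifs. The motifs were the interferon response element ISRE (GAAA, any 2 bases, GAAA), found in 2.98% of 32851 promoters, the GAS element TTCNNNGAA (7.02%), the E-box CACCTG bound by ZEB-type repressors (17.2%), the AP-1 motif TGANTCA (6.75%) and the TCF motif CTTTGAT (3.21%). The Cd44 window held none of them. The Procr window held 1 AP-1 match, 154 bases before the RefSeq start. AP-1 matches were also found for Prom1, at 88 and 189 bases before its 2 listed starts, and for Aldh1a1, at 57 bases, and each of these genes had 1 E-box match as well, although they had at most 3 counts in any library. The Procr window was also the richer in G and C, at 61.6% with 13 CpG, against 56.4% with 5 CpG for Cd44 and a median of 52.4% with 6 CpG over all promoters. A match of letters is a description and does not show that a factor binds.

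Ly6a (ENSMUSG00000075602.10) encodes SCA-1 and lies on the minus strand of chromosome 15 at 74994877 to 74998031. It was below the count filter and so outside the main test. It had 2, 1 and 3 counts in the P libraries (0.122, 0.0577 and 0.196 CPM) and 10, 9 and 5 counts in the AxR libraries (0.635, 0.574 and 0.284 CPM). The 6 counts in P and 24 in AxR gave a ratio of count rates of 4.01, with a 95% exact interval of 1.6 to 12. Intervals and limits of this kind cover counting error only. No AxR library overlapped a P library, with p = 0.1 in an exact permutation test, and 35.1% of tested genes had the same non-overlap in this direction. Without the count filter, edgeR's quasi-likelihood test gave Ly6a a log2 fold change of 1.94 and an adjusted p of 0.017 over 24736 genes. With single libraries left out, the call was lost in 3 cases by edgeR: without the second P library (log2 fold change 1.59, adjusted p = 0.0951), without the first AxR library (1.72, adjusted p = 0.0938) and without the second AxR library (1.83, adjusted p = 0.0671). It was kept by edgeR without the first P library (1.93, adjusted p = 0.0465), the third P library (2.38, adjusted p = 0.0169) or the third AxR library (2.23, adjusted p = 0.00596). Of its 50-base stretches, 19% also occur in other genes (Ly6c1, Ly6i, I830127L07Rik and Ly6c2), none of which had more than 2 counts in any library.

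Aldh1a3 (ENSMUSG00000015134.15), on the minus strand of chromosome 7 at 66390890 to 66427517, had 3, 9 and 4 counts in P and 4, 1 and 6 in AxR. The groups overlapped (p = 0.5, exact permutation test). Its ratio of count rates was 0.689 (95% exact interval 0.289 to 1.58), and it was 1.02 without the second P library, which alone held 9 of the 16 P counts. With that interval, no difference was detectable at this depth.

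Aldh1a1 (ENSMUSG00000053279.7, plus strand of chromosome 19, 20492715 to 20643465) had 0, 1 and 0 counts in P and 0, 1 and 2 in AxR. Prom1 (ENSMUSG00000029086.15, minus strand of chromosome 5, 43993620 to 44102032) had 0 counts in all P libraries and 1, 0 and 1 in AxR. Lgr5 (ENSMUSG00000020140.15, minus strand of chromosome 10, 115450311 to 115587780) had 0 counts in all P libraries and 2, 0 and 0 in AxR. These 3 genes stayed at or under 3 counts in every library, so no fold change is given for them. The counts of 0 over the 3 P libraries allow up to 0.0751 CPM for Prom1 and for Lgr5 (upper end of the 95% exact Poisson interval).

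The share of Aldh1a3 among the 4 ALDH1A genes could be computed but was imprecise. Aldh1a2 and Aldh1a7 had no counts in these libraries, and the whole group held 17 counts in P and 14 in AxR. On length-scaled counts, Aldh1a3 made up 100%, 90.6% and 100% in the P libraries and 100%, 51.7% and 76.2% in the AxR libraries. The groups overlapped, and the difference of -20.9 percentage points between the means had p = 0.4 in an exact permutation test.

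The genes around each marker were then counted from lists of its partners and pathway. Over these lists, 85 genes were tested, of which 44 rose (51.8%) and 24 fell (28.2%) with a median log2 fold change of 0.32, against 32.8% and 30.8% and a median of 0.01 over all tested genes. They include 12 interferon-induced genes, set beside Ly6a. Without these, 32 of 73 rose (43.8%) and 24 fell (32.9%), with a median of 0.12. The lists were drawn up with earlier results of these data known, so the shares describe the lists and test nothing. Every adjusted p that follows comes from the same edgeR quasi-likelihood fit.

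Of the CD44 partners (hyaluronan enzymes, other ligands, linker proteins and splicing factors of CD44; 11 of 13 tested), 5 rose, 3 fell and 3 did not pass, with a median log2 fold change of 0.39. The list also held Siglecg, Selp and Siglec1 (at most 3 counts in any library), which were not counted among these partners, and with them 6 of its 13 tested genes rose and 4 fell. Has2, which makes the hyaluronan that CD44 binds, fell from 73.7 ± 0.568 to 15.1 ± 1.73 CPM (log2 fold change -2.29, adjusted p = 4.21e-12). Hyal1, which degrades hyaluronan, rose from 1.73 to 7.53 CPM (2.12, adjusted p = 8.7e-08). Hyal2, a hyaluronidase gene with more counts, fell from 35.2 to 21.4 CPM (-0.72) and passed the test. Has3, another gene of a hyaluronan-making enzyme, had 2.24 and 2.95 CPM (0.39) and did not pass. Hmmr, another hyaluronan receptor gene, rose from 73.7 to 138 CPM (0.90) and passed. Hyal2, Has3 and Hmmr were named after their values were seen. Spp1 (osteopontin), another CD44 ligand, rose from 240 ± 11.4 to 749 ± 58.2 CPM (1.64, adjusted p = 8.39e-12). Thus the gene of one ligand-producing enzyme was lower and the gene of another ligand higher beside a lower Cd44 transcript. Msn (moesin), which links CD44 to the actin cortex and is the member of the list with the most counts, rose from 1394 to 1832 CPM (0.39, adjusted p = 9.88e-06). Esrp1, a splicing factor that favours CD44 variant exons, had a log2 fold change of 0.82, and its relative Esrp2 one of -0.54; both passed the test, and they were named after their values were seen.

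Siglecg encodes a sialic acid-binding receptor of B cells that recognises CD24, and Selp encodes P-selectin, an adhesion receptor for CD24. Siglecg rose from 0.466 ± 0.26 to 8.23 ± 0.78 CPM (log2 fold change 4.11, adjusted p = 2.5e-09). Selp had 60 counts in P and 5 in AxR, a ratio of count rates of 0.0835 (95% exact interval 0.0262 to 0.206). Both are genes of cells other than carcinoma cells in the body, and the leukocyte and endothelial marker lists are given further on.

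In the Ly6 family around Ly6a, 19 of 21 listed genes were found in the file and 15 of these had at most 3 counts in every library. Of the 4 tested, 3 rose and 1 fell. Ly6e, a neighbour of Ly6a on chromosome 15, rose from 1.97 ± 0.041 to 27.6 ± 4.25 CPM (log2 fold change 3.80, adjusted p = 1.34e-11). Lynx1 had 3 counts in P and 113 in AxR (ratio of count rates 37.7, 95% exact interval 12.6 to 186). Lypd3 rose from 1.91 to 4.41 CPM (log2 fold change 1.20). Plaur, the urokinase receptor and the family member with the most counts, fell from 68.8 to 51.9 CPM (-0.41). Ly6a and Ly6e are both known to respond to interferon, and 12 of 12 interferon-induced genes rose, with a median log2 fold change of 3.43. Among them, Isg15 had a log2 fold change of 4.94, Oasl2 one of 4.78 and Ifit3 one of 4.14. B2m, the light chain of MHC class I, went from 208 to 473 CPM (1.19). Ifit1 had a log2 fold change of 6.64 (7.92 without the second P library), and Rsad2 had 4 counts in P and 469 in AxR. The part of interferon in the Ly6a counts was not tested.

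Of the aldehyde dehydrogenases outside the marker set (13 of 18 tested), 7 rose, 3 fell and 3 did not pass, with a median log2 fold change of 0.27. Aldh2, the mitochondrial enzyme that clears acetaldehyde and the family member with the highest mean CPM over the 6 libraries (in P alone, Aldh18a1 was higher, at 330 CPM), rose from 237 ± 3.21 to 442 ± 12.8 CPM (0.90, adjusted p = 2.86e-10). Aldh1l2, the mitochondrial formyltetrahydrofolate dehydrogenase, rose from 2.93 ± 0.273 to 53.5 ± 6.35 CPM (4.19, adjusted p = 5.23e-13). Aldh3a1 rose from 0.607 to 2.82 CPM (2.19) and Aldh16a1 from 7.8 to 16.2 CPM (1.05). Aldh1b1 had 2 counts in P and 53 in AxR (ratio of count rates 26.6, 95% exact interval 7 to 225). Aldh7a1, which acts in lysine breakdown, fell from 15.8 to 5.35 CPM (-1.56). The family members with more than traces of RNA were therefore not those of the marker set.

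The retinoid pathway, in which ALDH1A enzymes make retinoic acid, had 10 of 20 genes tested, of which 6 rose, 1 fell and 3 did not pass (median log2 fold change 0.28). Crabp2, a carrier of retinoic acid to the nucleus, rose from 0.361 ± 0.144 to 6.4 ± 0.92 CPM (4.10, adjusted p = 3.81e-09). Dhrs3, which returns retinaldehyde to retinol, rose from 0.241 to 3.07 CPM (3.62). Dhrs9 went from 47.3 to 100 CPM (1.08). Rdh10, the list's 1 lower call and named after its values were seen, fell from 56.8 to 40.6 CPM (-0.48, adjusted p = 9.26e-06). Rarg, the receptor gene with the most counts of the list, rose from 68.4 to 80 CPM (0.23).

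Of the LGR receptors, R-spondins and WNT output genes around Lgr5, 8 of 17 were tested: 1 rose, 4 fell and 3 did not pass, with a median log2 fold change of -0.24. The relatives of Lgr5, which were named after their values were seen, were measurable where Lgr5 was not. Lgr6 fell from 57 to 35.9 CPM (-0.67, adjusted p = 1.11e-06). Lgr4 rose from 21.3 to 26.6 CPM (0.32, adjusted p = 0.0126), and this, the list's 1 higher call, was lost without the second P library. No library held more than 3 counts of any of the 4 R-spondin genes, nor of the WNT targets Axin2, Nkd1, Ascl2 or Sp5. The WNT target Notum, named after its values were seen, was detected, with 13, 14.69 and 8 estimated counts in P and 2, 2 and 1 in AxR (ratio of count rates 0.139, 95% exact interval 0.0426 to 0.356). Tcf7, a WNT transcription factor, fell from 4.43 to 1.28 CPM (-1.78). Rnf43, Znrf3 and Lef1, also of this list and named after their values were seen, were measurable. Rnf43 fell from 7.69 to 3.87 CPM (-0.99) and passed the test. Znrf3 had 45.6 and 44.9 CPM (-0.02) and Lef1 had 5 and 4.36 CPM (-0.21), and neither passed. Lrp6, a WNT co-receptor, had 163 and 162 CPM (-0.01, adjusted p = 0.882).

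PROCR binds protein C at the cell surface, where thrombin held by thrombomodulin activates it, and activated protein C signals through the thrombin receptors. In this list 6 of 14 genes were tested, of which 3 rose and 3 fell (median log2 fold change 0.28). F2r (PAR1), through which PROCR-bound protein C signals, fell from 160 ± 2.92 to 92 ± 2.36 CPM (-0.80, adjusted p = 2.6e-09). F2rl1 (PAR2), named after its values were seen, had a log2 fold change of -0.98 and passed the test. Pros1, the cofactor of activated protein C, fell from 2.36 to 0.802 CPM (-1.56). On the procoagulant side, F3 (tissue factor) rose from 6.31 ± 0.802 to 22.9 ± 2.18 CPM (1.86, adjusted p = 1.83e-09) and F8 from 0.299 to 1.15 CPM (1.88), while Tfpi, the inhibitor of tissue factor, rose from 0.929 to 2.39 CPM (1.35). Proc and Thbd themselves never exceeded 3 counts.

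The 2 genes whose pattern over the 6 libraries was nearest to that of Procr, among 9249 candidates of at least 10 CPM, were Tuba1a and Adgrl1. Tuba1a, an alpha-tubulin gene, had 159 ± 6.82 CPM in P and 78.4 ± 10.2 CPM in AxR (root mean square distance 0.0535 on the log2 scale). Adgrl1, an adhesion G protein-coupled receptor gene, had 98.9 ± 1.14 and 47.7 ± 3.29 CPM (distance 0.0748). They lie on chromosomes 15 and 8, away from Procr.

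Beside Prom1, its relative Prom2 was measured at 12.3 ± 1.48 CPM in P and rose to 58.3 ± 1.19 CPM in AxR (log2 fold change 2.24, adjusted p = 8.41e-12 by edgeR's quasi-likelihood test). Prom2 encodes prominin-2, a protrusion protein of epithelial cells.

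Other genes used to describe mammary stem or tumour-initiating cells (18 of 31 tested) gave 5 higher, 8 lower and 5 that did not pass, with a median log2 fold change of -0.26. Abcg2, the drug efflux pump behind the side population assay, had 310, 411 and 289 counts in the P libraries and 7, 1 and 2 in the AxR libraries. Its level thus went from 20.5 ± 2.82 to 0.207 ± 0.207 CPM, a ratio of count rates of 0.00992 (95% exact interval 0.00474 to 0.0183). The log2 fold change was -6.60 (adjusted p = 6.64e-11, edgeR's quasi-likelihood test) and -7.71 without the first AxR library. Itgb1 (CD29), the integrin used with CD24 to sort basal mammary cells and the list's most counted gene, fell from 1788 to 1342 CPM (-0.41, adjusted p = 1.39e-06 by edgeR). Krt14, a basal keratin, rose from 1.09 to 5.95 CPM (2.45), and Trp63, a basal transcription factor, had 3 counts in P and 55 in AxR (ratio of count rates 18.4, 95% exact interval 5.97 to 91.8), a ratio that rests on those few P counts. Krt5, the usual partner of Krt14, had no count in any library, and Thy1, Cd200, Tspan8, Bcl11b, Sox10, Snai2, Sox2, Nanog, Pou5f1 and Cxcr4 had at most 3.

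**Figure D5:**
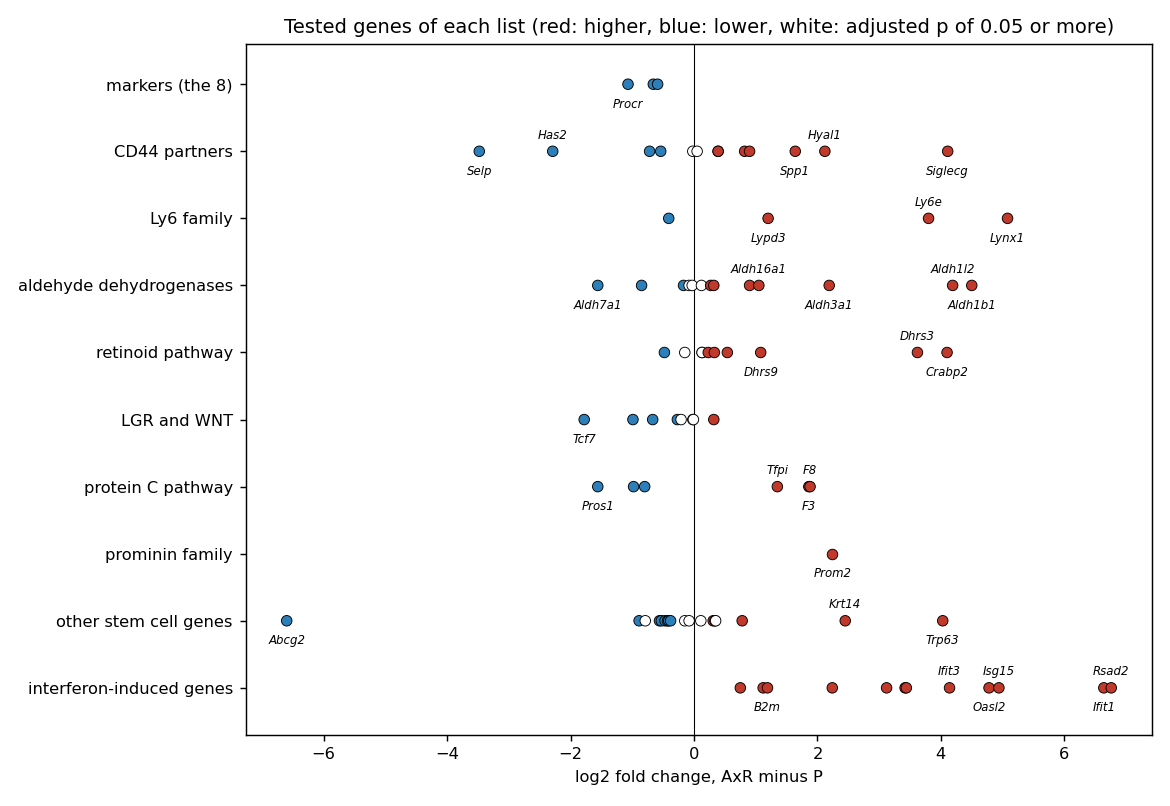
Log2 fold change of AxR against P for the tested genes of each list, 1 row per list and 1 point per gene, coloured by whether it was called higher, lower or neither; the 3 tested markers are the top row. The markers lie below 0 (median -0.66), the 12 interferon-induced genes lie above 0 (median 3.43), and most other lists hold genes on both sides.

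The labelled cell type was checked against its markers. Of 12 mammary epithelial markers, 10 were tested, of which 6 rose and 2 fell, against 32.8% higher and 30.8% lower over all tested genes. The 12 markers summed to 2206 to 2422 CPM in P and 3288 to 3467 CPM in AxR. Among these, Krt18 had the most counts and rose from 676 to 867 CPM, Krt19 fell from 8.88 to 3.56 CPM, and Krt5 and Pgr were at 0. Of the other cell types that express CD44, SCA-1 or PROCR, leukocyte markers summed to 0.13 to 0.404 CPM in P and 0.254 to 0.398 CPM in AxR, with 0 of 8 tested and Tyrobp, Fcer1g and Cd3e at 0. Lung epithelial markers were also untested and summed to under 1 CPM in every library. Endothelial markers summed to 5.96 to 7.22 CPM in P and 3.51 to 4.51 CPM in AxR, mostly from Egfl7, which fell from 5.82 to 3.51 CPM (log2 fold change -0.73), while Kdr, Emcn and Cldn5 were at 0. Fibroblast markers summed to 22.5 to 24.2 CPM in P and 10.4 to 11.9 CPM in AxR, nearly all from Pdgfra, which fell from 22.6 to 10.1 CPM (-1.15), while Lum, Col3a1 and Thy1 were at 0. The endothelial and fibroblast sums were lower in AxR, as Procr was, but each rested largely on 1 gene. Members with few counts, named after their values were seen, went both ways. Pdgfrb had 0 counts in P and 15 in AxR, and Vwf had 1 and 10. Cdh5 had 16 counts in P and 1 in AxR, and Col1a1 had 27 and 12, with overlapping libraries. The part of such cells in the result was not tested.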

How the data were processed

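Poly(A) RNA of 3 P and 3 AxR libraries was prepared with a stranded mRNA kit and sequenced by the authors. Per the submitters' processing notes and the study's methods, reads were checked with FastQC 0.11.5, aligned with STAR 2.6.0a to GRCm38 and counted per GENCODE gene with RSEM 1.3.1. The authors deposited RSEM estimated counts, not normalised; 10.3% to 10.7% of all values in a library, or 28.2% to 29.4% of those above 0, were not whole as written (no tolerance), and counts were rounded for testing. Symbols, positions and lengths came from GENCODE M21, in which 53274 of 53465 identifiers were found.

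Genes were filtered with edgeR's filterByExpr (13550 kept, holding 99.9% of counts), scaled by upper quartile and tested with edgeR 4.0.16 (R 4.3.3; quasi-likelihood test, group as the only term, Benjamini-Hochberg adjustment, threshold 0.05). The procedure was tested on simulated data in which far fewer genes were changed than were called here. Its behaviour under a change this wide was not tested. CPM values and ratios used unrounded counts. For some genes with few counts in a line, ratios of count rates with 95% exact intervals were given in place of fitted folds or beside them. Other fitted folds also rest on few P counts, such as those of Ifit1 (8 counts in P), Dhrs3 (12), F8 (15), Ifit3 (17.81) and Crabp2 (18).

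The members and lists were chosen with earlier results of these data known. Named genes were all 8 members, up to 5 called genes per list that moved by at least 1 on the log2 scale and reached 1 CPM in the higher line, the gene of each list with the highest CPM, and the 2 genes nearest in pattern to Procr; exceptions are marked. Alternatives were TMM and library-size scaling, DESeq2 1.42.0, limma 3.58.1 (voom), other filters and thresholds, a replicate block, leaving out each library, other gene lengths and the chromosome median.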

Additional observations from a re-analysis of the deposited data

How the results depend on the processing

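The 3 falls were called in every alternative of scaling, tool, filter and left-out library: Cd44 ranged from -0.62 to -0.56, Cd24a from -0.74 to -0.54 and Procr from -1.16 to -0.98 on the log2 scale. Relative to the chromosome median, Cd44 was at -0.50 and Cd24a at -0.91. With a change of at least 1 on the log2 scale required, 1083 genes were higher and 640 lower, with 1 member lower and 6 listed genes lower. Without the count filter, 1 member (Ly6a) was higher; leaving out single libraries there was chosen after seeing the data. TMM scaling gave 2 lower retinoid genes in place of 1. With the longest transcript as length, Cd44 was at 94.4 RPKM in P and 62.6 in AxR, Cd24a at 96.5 and 61.2, and Procr at 33.4 and 16. Leaving out single libraries, the difference in the Cd44 to Cd24a log2 ratio ranged from -0.02 to 0.13, with the sign turned without the third AxR library. Lrp6, which was not called, ranged from -0.04 to 0.03: it was at 0.01 without the first or the third P library and 0.03 without the third AxR library. The Aldh1a3 ratio of count rates ranged from 0.488 without the third AxR library to 1.02 without the second P library. The share of Aldh1a3 stayed lower in AxR, by -32.9 to -8.74 percentage points, with p from 0.2 to 0.8 in exact permutation tests. It rests on 17 counts in P and 14 in AxR. The median over all genes stayed between -0.02 and 0.02 under every scaling.

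Over all tested genes, libraries with the same replicate number did not deviate together (correlations -0.0213, -0.0061 and -0.0217), so no pairing by number was seen. A shared step that touched few genes would not show in this check. With the replicate block, 4304 genes were higher and 4023 lower, against 4441 and 4167, and 3 members were lower. In the blocked fit the log2 fold changes were -0.59 for Cd44, -0.66 for Cd24a and -1.07 for Procr. The 5 markers under the filter are limited by depth: 3 counts are 0.171 to 0.196 CPM.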
